A study of Mus musculus with 6 samples.

Results

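FoxO1 loss was described in beta cells of young female mice that had never been pregnant, by setting 1 library of FoxO1-deficient cells against 1 library of wild-type cells. The compared genes were those annotated at a single locus, with no value of 0 in either library and with at least 5 FPKM in at least 1 of them. FPKM, the unit the authors deposited, is the number of fragments scaled by transcript length and by all fragments mapped. Altogether 8114 of 23087 genes at a single locus met this rule. Because each group held 1 library, the differences have no replicate check, and sizes are given without a test, error or p-value.

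The IKO mice carried a floxed Foxo1 gene and a Cre transgene under the rat insulin promoter (RIP-Cre), which acts in the insulin-producing cells, and the comparison mice were wild type (WT). RIP-Cre transgenes are also known for activity in parts of the brain. The WT label names neither the Cre nor the floxed allele, so FoxO1 loss, the presence of Cre and the presence of the floxed allele cannot be told apart between the 2 groups. All mice were females of a mixed 129J-C57BL/6 background on chow, and beta cells were sorted by flow cytometry from purified islets. The groups described were IKO at 3 months, nulliparous, and WT at 3 months, nulliparous. For reference to later stages, IKO and WT pairs at 12 months, nulliparous, and at 12 months after 3 pregnancies were read as well; the multiparous IKO library carries the further label DM and the multiparous WT library the label NGT. The number of animals per library is not given in the labels.

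FoxO1 is a forkhead transcription factor. Insulin and growth factor signals, acting through the kinase Akt, lead to its phosphorylation and keep it out of the nucleus, whereas starvation and oxidative stress bring it into the nucleus, where it binds a short forkhead element. In beta cells it is known for preserving cell identity under metabolic stress, and mice without it in beta cells are known to lose insulin-producing identity with age and repeated pregnancy. The 3-month mice were young and had not been pregnant.

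The upstream stretches of 3 genes that were lower in IKO are shown, because the forkhead element core GTAAACA, read on both strands, is the only sequence feature searched. It was found upstream of 2 of the 7 genes at least 1.5-fold lower that had a stretch in the table. Mid1, a ubiquitin ligase bound to microtubules, has the element as TGTTTAC, 109 to 115 bases before the start shown, and 3 starts of Mid1 are in the table. Tmsb15b2, a thymosin beta gene, has it as GTAAACA, 171 to 177 bases before its start. Rgs4, which speeds the shut-off of G protein signals, has no match in this window. The stretches are the 250 bases before the gene start, from RefSeq on GRCm38.p6 (the same coordinates as mm10), written 5′ to 3′ on the gene's own strand, with the element in capitals. The Mid1 stretch is chrX:169684949-169685198 (+ strand), that of Tmsb15b2 is chrX:136957980-136958229 (- strand) and that of Rgs4 is chr1:169747643-169747892 (- strand).
Mid1: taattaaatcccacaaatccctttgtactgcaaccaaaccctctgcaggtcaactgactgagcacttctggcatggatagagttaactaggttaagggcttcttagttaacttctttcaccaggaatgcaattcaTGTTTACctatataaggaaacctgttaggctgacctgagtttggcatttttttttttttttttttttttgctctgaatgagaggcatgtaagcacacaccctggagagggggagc
Tmsb15b2: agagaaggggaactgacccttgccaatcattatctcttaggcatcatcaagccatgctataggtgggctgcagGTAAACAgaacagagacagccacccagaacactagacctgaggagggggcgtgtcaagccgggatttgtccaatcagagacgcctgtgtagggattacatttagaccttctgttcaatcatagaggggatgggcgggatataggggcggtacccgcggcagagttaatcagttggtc
Rgs4: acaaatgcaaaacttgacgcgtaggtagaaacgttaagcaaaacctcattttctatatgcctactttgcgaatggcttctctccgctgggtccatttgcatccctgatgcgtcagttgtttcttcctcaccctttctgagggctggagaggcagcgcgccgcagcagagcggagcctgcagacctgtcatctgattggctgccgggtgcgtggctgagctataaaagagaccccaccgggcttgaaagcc

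Over all genes in the RefSeq table, 956 of 27025 held the element in at least 1 of their upstream stretches, which is 3.54%. Among the genes compared it was 157 of 6171, or 2.54%. A gene with several starts, such as Mid1, had several stretches searched. Of the genes at least 1.2-fold lower in IKO, 4 of the 62 with a stretch held it (Etv5, Mid1, Stard5 and Tmsb15b2), which is 6.45%. Of the genes at least 1.2-fold higher, 0 of 64 held it. These are small counts of letter matches in 1 window and were not tested.

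The 2 libraries were close. The median size of the log2 ratio of FPKM + 1, IKO over WT, was 0.0497, and 97.9% of the compared genes lay within 1.2-fold. Adding 1 understates the differences of low genes. Over the scalings tried, the median log2 ratio of all genes lay between -0.00772 and 0.00820, so the direction of ratios this close to 0 depends on the scaling. FPKM summed to 272740 in IKO and 269418 in WT, and 11090 genes in IKO and 11085 in WT reached 1 FPKM. Read counts were not used here and the absolute depth is unknown. Of 2210 genes under 0.1 FPKM in both libraries, 442 had log2 ratios of FPKM within 0.1 of 0. Their median IKO over WT ratio was 0.981, and 397 of the 442 lay within 0.01 (log2) of that value, as genes with equal fragment numbers would. If their fragment numbers were equal, 1 fragment had nearly the same value in both libraries. The limit of 0.1 keeps the ratio near 1 by choice, and the other low genes were not examined. Relative depth therefore cannot be decided from these values. The same median size was 0.0810 for the multiparous pair and 0.291 for the older nulliparous pair, whose WT library stands apart from the other 5. Ins1, Ins2 and Iapp were listed at 0 in all 6 libraries, so the hormones that define a beta cell could not be read. Other genes of these cells were abundant, such as G6pc2, a glucose-6-phosphatase of beta cells (785 FPKM in IKO, 842 in WT). Ucn3, a peptide of mature beta cells, stood at 182 FPKM in IKO and 171 in WT.

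A 2-fold difference was reached by 4 higher genes (0.0493% of the 8114 compared) and by 5 lower ones (0.0616%). At 1.5-fold, 12 were higher (0.148%) and 14 lower (0.173%), together 26 genes (0.320%). At 1.2-fold, 91 were higher (1.12%) and 83 lower (1.02%), together 174 (2.14%). The members just inside 1.5-fold were Pcp4 (29.8 FPKM in IKO, 18.8 in WT) and Snora70 (33.4 in IKO, 51.5 in WT), and those just outside were Rpl36 (40.3 in IKO, 26.9 in WT) and Fbp1 (10.7 in IKO, 16.5 in WT). Of the 26 genes, 12 overlapped another gene of the table, and the share over all compared genes was not counted. Whether the authors' counting used strand is not given in the sources used here, so reads of overlapping genes may be shared. Of the 26, 7 spanned under 300 bases, against 13 of all 8114 genes compared. These 7 small nucleolar and micro-RNA entries are shorter than, or close to, the fragments a poly-A library holds, and their FPKM is uncertain. Without them, 1.5-fold was passed by 8 higher and 11 lower genes.

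**Figure D1:**
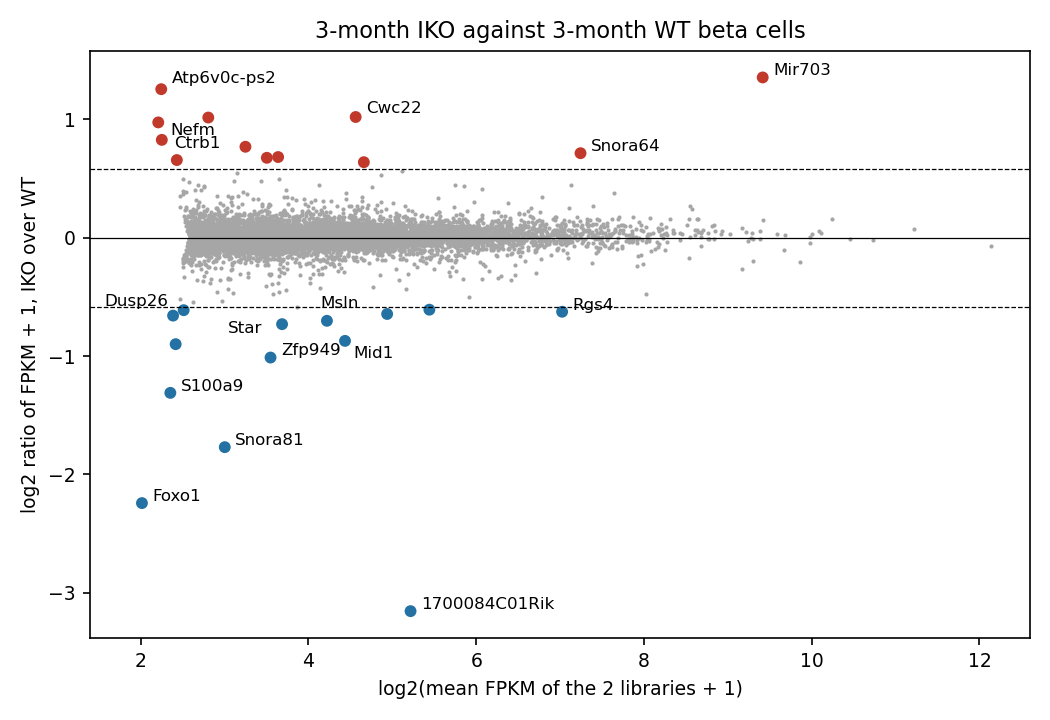
Each point is 1 of the 8114 compared genes at 3 months; the x axis is the log2 of the mean FPKM of both libraries plus 1 and the y axis the log2 ratio of FPKM + 1, IKO over WT. Red and blue points are the 12 higher and 14 lower genes past 1.5-fold (dashed lines), and the grey points are the others, with a median size of 0.0497.

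Foxo1 (chromosome 3, 52268337 to 52350109, mm10), the deleted gene, had 0.410 FPKM in IKO and 5.67 FPKM in WT, so the IKO library held 7.22% of the WT level. Its log2 ratio of FPKM + 1 was -2.24. At the later stages Foxo1 had 0.410 FPKM in IKO and 7.62 in WT (12 months, nulliparous), and 0.656 in IKO and 8.93 in WT (multiparous). All 3 IKO values lay below all 3 WT values, which the deletion fixes. Fewer cells with Foxo1 RNA and less Foxo1 RNA per cell cannot be told apart in a bulk library. Neither can residual transcript of the floxed allele and RNA of cells without Cre. The other FoxO genes had values close to each other in the 2 libraries. Foxo3, the relative with the broadest known expression, had 4.30 FPKM in IKO and 4.50 in WT, Foxo4 had 4.54 in IKO and 4.01 in WT, and Foxo6 had 5.84 in IKO and 5.24 in WT. Of these 3, Foxo6 alone passed the level rule, with a log2 ratio of 0.13.

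Genes next to Foxo1 had near-equal values. The 15 other compared genes within 5 Mb had log2 ratios of -0.10 to 0.06, and 0 of them passed 1.2-fold. Cog6, a subunit of a Golgi tethering complex and the nearest compared gene on 1 side, had 41.0 FPKM in IKO and 41.5 in WT. Maml3, a coactivator of Notch signalling and the nearest on the other side, had 5.50 FPKM in IKO and 5.28 in WT. Chromosome 3 held 5 of the 26 genes past 1.5-fold (Foxo1, S100a9, S100a6, Cldn11 and Hist2h2bb), which is 19.2%, while it held 4.82% of all genes compared. Foxo1, the deleted gene, is itself among these 5. Chromosome 17 held 4 of the 26 (15.4%, with 5.20% of all genes compared) and chromosome X held 3 (11.5%, with 3.28%). At 1.2-fold, 14 of the 391 compared genes of chromosome 3 passed (3.58%), against 2.14% over all chromosomes. That share was 3.92% on chromosome 16 and 3.52% on chromosome 8.

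**Figure D2:**
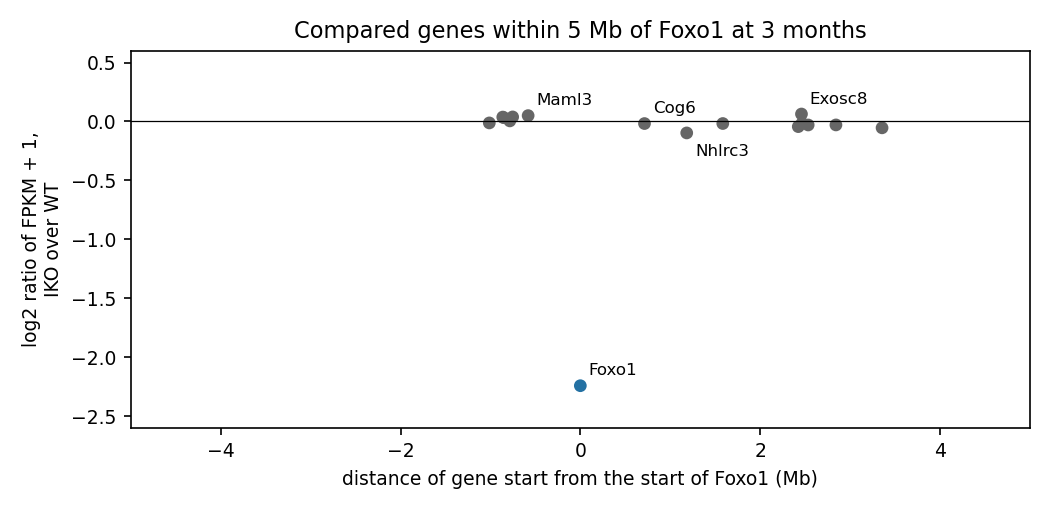
The y axis is the log2 ratio of FPKM + 1 at 3 months, IKO over WT, of the compared genes within 5 Mb of Foxo1, and the x axis the distance of each gene's start from that of Foxo1 in Mb. Foxo1 stands at -2.24 and its 15 neighbours lie between -0.10 and 0.06.

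The largest difference of the pair was not Foxo1 but 1700084C01Rik (chromosome 1, 169928939 to 169934653), an uncharacterised transcript with no role assigned here. It had 6.50 FPKM in IKO and 65.9 FPKM in WT at 3 months, a log2 ratio of -3.16. After pregnancies it had 10.03 FPKM in IKO and 48.9 in WT, and at 12 months nulliparous it had 22.8 in IKO and 29.9 in WT. All 3 IKO libraries were below all 3 WT libraries, with the smallest gap at 12 months nulliparous. Rgs4, lower as well, lies 181 kb away on the same chromosome, with 0 compared genes between them. The 4 other compared genes within 1 Mb of this pair had log2 ratios of -0.12 to -0.03. Strain differences around single loci, which a mixed background can carry, were not tested.

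Msln and Mid1 were lower in IKO at 3 months and past 1.5-fold in the same direction in both other pairs. Msln, which encodes the surface glycoprotein mesothelin (chromosome 17, 25748613 to 25754327), had 13.2 FPKM in IKO and 22.1 in WT, a log2 ratio of -0.70. Its 3-month ratio was the smallest of the 3 pairs; the older nulliparous pair had -0.94 and the multiparous pair -1.17. Mid1 (chromosome X, 169685247 to 169990797), whose upstream stretch is shown above, had 14.3 FPKM in IKO and 27.0 in WT, a log2 ratio of -0.87. Its ratio was nearly even over the pairs, at -0.71 in the older nulliparous pair and -0.73 in the multiparous pair. Both genotypes had less Mid1 at 12 months, with 8.72 and 8.53 FPKM in the IKO libraries and 14.9 and 14.8 in the WT libraries, so the 3-month IKO value of 14.3 was close to the level of older WT cells. Of the genes past 1.5-fold in all 3 pairs there were 4, the others being Foxo1 and the short Snora17, which was higher (11.0 FPKM in IKO, 6.03 in WT at 3 months).

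Signalling genes were among the others that were lower. Rgs4 (chromosome 1, 169741477 to 169747642), a GTPase-activating protein for G protein alpha subunits, had 101 FPKM in IKO and 157 in WT, a log2 ratio of -0.63. It was the most abundant protein-coding gene of the 14. In the multiparous pair it had 173 FPKM in IKO and 221 in WT, while at 12 months nulliparous IKO was the higher, with 157 FPKM in IKO and 133 in WT. The other members of the Rgs family were looked up after this value was seen. Of the 7 Rgs genes compared, 3 passed 1.2-fold, all lower, where 1.02% of all genes did so. Besides Rgs4 these were Rgs2 (6.02 FPKM in IKO, 8.48 in WT) and Rgs16 (8.70 in IKO, 11.9 in WT). The other 4, Rgs3, Rgs7, Rgs9 and Rgs11, had log2 ratios above 0, of 0.09 to 0.18, and the median of the 7 was 0.09. Dusp26, a dual-specificity phosphatase, had 3.51 FPKM in IKO and 5.90 in WT, a log2 ratio of -0.61. All 3 IKO libraries were below all 3 WT libraries for Dusp26 (2.41 and 4.51 FPKM in the older IKO libraries, 7.05 and 7.03 in the older WT libraries).

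Metabolic genes among the lower ones were Star and Fbp1. Star, which carries cholesterol into mitochondria for steroid synthesis, had 8.67 FPKM in IKO and 15.05 in WT, a log2 ratio of -0.73. Fbp1, the gluconeogenic enzyme fructose bisphosphatase, just missed 1.5-fold at -0.58. Both were lower in IKO in the multiparous pair too (Star at 4.89 FPKM in IKO and 6.97 in WT, Fbp1 at 5.96 in IKO and 11.8 in WT). At 12 months nulliparous both were higher in IKO, Star with 11.6 FPKM in IKO and 6.07 in WT, Fbp1 with 16.5 in IKO and 13.3 in WT. Lpl, lipoprotein lipase, named after its values were seen, had 73.7 FPKM in IKO and 94.4 in WT at 3 months. In the multiparous pair it had 38.1 in IKO and 63.3 in WT. At 12 months nulliparous IKO was the higher, with 64.6 FPKM in IKO and 60.8 in WT.

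S100a9 and Zfp949 were lower in IKO at 3 months and above 0 in both other pairs. S100a9, a calcium-binding protein abundant in neutrophils and other myeloid cells, had 1.94 FPKM in IKO and 6.28 in WT. The myeloid markers together summed to 28.2 FPKM in IKO and 31.3 in WT, and without S100a9 itself to 26.2159 in IKO and 24.9997 in WT. S100a8, its binding partner in neutrophils, was lower too (0.248 FPKM in IKO, 0.598 in WT), as were Fcer1g (1.26 in IKO, 1.70 in WT) and Itgam (0.00694 in IKO, 0.0141 in WT). Of the 17 myeloid markers above 0 in both libraries, 12 were higher in IKO, where 50.7% of all genes were, and Ptprc, the pan-leukocyte marker, had 0.0637 FPKM in IKO and 0.0477 in WT. The part of such cells in the S100a9 value was not tested. Zfp949, a zinc finger gene of a large family with similar copies, had 6.75 FPKM in IKO and 14.6 in WT, while the 4 older libraries lay between 7.31 and 9.86. Here the 3-month WT library was the high one of 6. Tmsb15b2 had 22.9 FPKM in IKO and 36.4 in WT, but shares its locus with Tmsb15l, which had 3.42 FPKM in IKO and 0.588 in WT, so the division of reads between these 2 is uncertain. AA465934 (3.05 FPKM in IKO, 5.40 in WT) overlaps 2 other genes, and its ratio was -2.10 in the older nulliparous pair and 1.93 after pregnancies. The remaining 3 of the 14 were short RNAs inside Eif4a2, Rps3 and Rpl10. Snora81 in Eif4a2 had 2.63 FPKM in IKO and 11.4 in WT, while its host had 177 in IKO and 183 in WT.

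Several of the higher genes have uncertain values. Mir703, an entry of 109 bases that overlaps another gene, had 981 FPKM in IKO and 383 in WT. It was above all WT libraries in all 3 IKO libraries, at 651 and 668 FPKM in the older IKO libraries and 411 and 470 in the older WT libraries. Atp6v0c-ps2, a pseudogene that overlaps the proton pump gene Atp6v0c, had 5.68 FPKM in IKO and 1.80 in WT, and ranged over the older libraries from 2.28 to 115 FPKM. Cwc22, a splicing factor with known extra copies in some mouse genomes, had 30.7 FPKM in IKO and 14.6 in WT. At the later stages its order was the opposite, with 36.8 FPKM in IKO and 56.8 in WT at 12 months nulliparous, and 32.3 in IKO and 82.8 in WT in the multiparous pair. The 3 IKO libraries were close to each other in Cwc22 and the 3 WT libraries were spread. Snora64 in Rps2 had 187 FPKM in IKO and 114 in WT, Snora78 in Snhg9 had 8.36 in IKO and 3.63 in WT, and their hosts were lower in IKO (Rps2 at 221 in IKO and 261 in WT, Snhg9 at 13.97 in IKO and 19.1 in WT).

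Of the other protein-coding genes past 1.5-fold higher at 3 months, 0 were higher in IKO in both other pairs. Nefm, the medium neurofilament, had 5.13 FPKM in IKO and 2.12 in WT at 3 months, and 9.43 in IKO and 6.70 in WT in the multiparous pair, but was lower in IKO at 12 months nulliparous. Cldn11, a tight junction claudin, had 14.3 FPKM in IKO and 8.56 in WT at 3 months, and 3.32 in IKO and 0.987 in WT in the multiparous pair. All 4 older libraries were below both 3-month libraries. Pcp4, a calmodulin regulator, was higher in IKO at 12 months nulliparous too, with 29.5 FPKM in IKO and 15.2 in WT. S100a6, a calcium-binding protein, had 13.0 FPKM in IKO and 7.73 in WT at 3 months, and was lower in IKO in both other pairs (7.85 in IKO and 14.9 in WT at 12 months nulliparous, 6.21 in IKO and 12.8 in WT in the multiparous pair). Its neighbour S100a9, 78 kb away, had the opposite order in each of the 3 pairs. Hist2h2bb, an H2B histone gene, had 5.60 FPKM in IKO and 3.18 in WT. Ctrb1, the acinar chymotrypsinogen, is described with the acinar markers. Just outside 1.5-fold, Cdk14, a cyclin-dependent kinase, had 9.47 FPKM in IKO and 6.18 in WT, and all 3 of its IKO values (9.47, 8.25 and 7.70) were above all 3 WT values (6.18, 3.42 and 5.39). Prom1, a membrane protein of epithelial protrusions, had 33.6 FPKM in IKO and 22.9 in WT at 3 months, and 21.8 in IKO and 30.9 in WT in the multiparous pair.

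**Figure D3:**
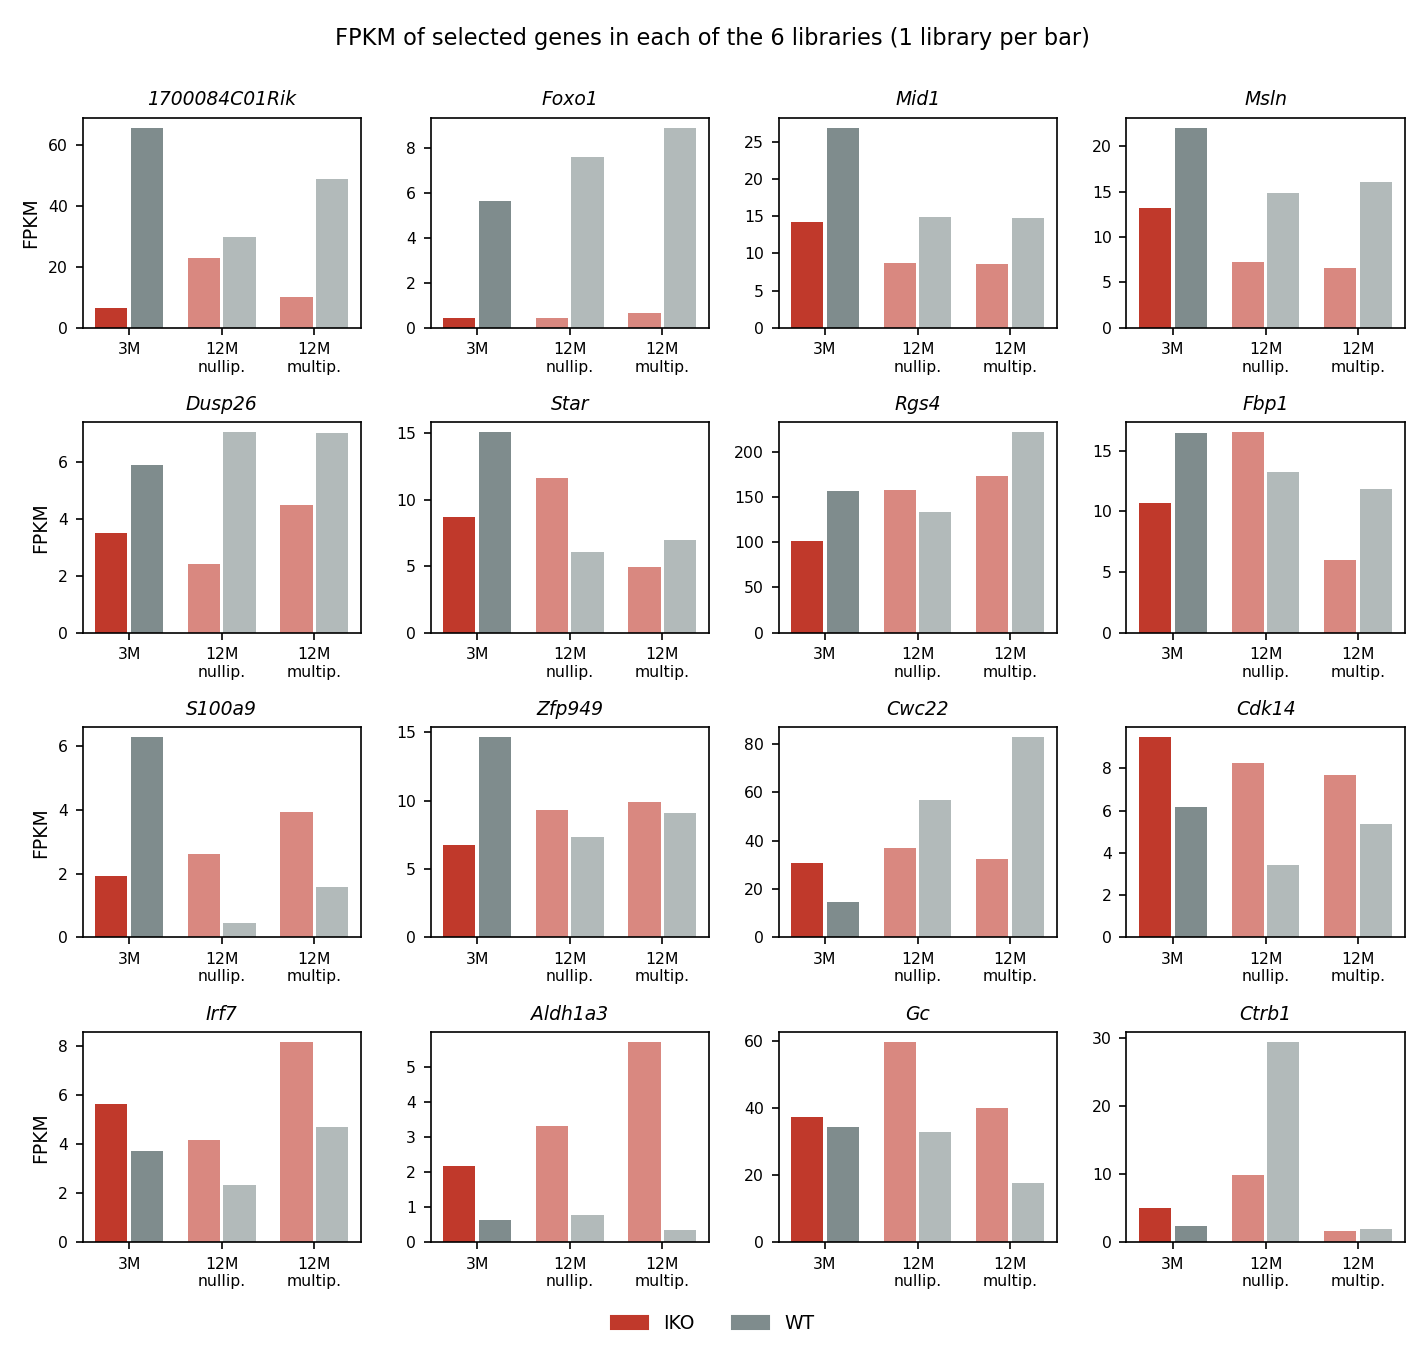
Bars give the FPKM of 16 genes in each of the 6 libraries, IKO in red and WT in grey, with the 3-month pair in full colour and both 12-month pairs paler; each bar is 1 library. Foxo1, Mid1, Msln, Dusp26 and 1700084C01Rik are lower in IKO in all 3 pairs, whereas S100a9 and Cwc22 change order between 3 months and the later stages.

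The 3-month differences were then looked up in the older pairs, which share no library with them. Of the 83 genes at least 1.2-fold lower at 3 months, 67 (80.7%) were also below 0 in the multiparous pair, with a median log2 ratio of -0.24, where 54.2% of the compared genes were below 0. Of the 91 higher genes, 62 (68.1%) were above 0 there, with a median of 0.16, against 45.8% of the compared genes. In the 12-month nulliparous pair the shares were 37.3% of the lower genes and 35.2% of the higher genes, against 45.0% below and 55.0% above 0 over the compared genes. The WT library of that pair is the one that stands apart. Its cytosolic ribosomal protein genes summed to 10307 FPKM, against 5018 to 5304 in every other library. The part of that library in these shares was not tested. With trends over transcript length and GC content removed from both pairs, 67 of 88 lower genes (76.1%, against 48.6% of all) and 48 of 71 higher genes (67.6%, against 51.0%) kept their direction in the multiparous pair. Among the 26 genes past 1.5-fold, 9 of 14 lower and 6 of 12 higher ones had the same direction in the multiparous pair. The direction was the same in both other pairs for 9 of 26 and the opposite in both for 9 of 26.

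Complete separation of the 3 IKO from the 3 WT libraries was seen for 9 of the 83 lower genes and 10 of the 91 higher ones. Over all compared genes 2.21% had all IKO libraries below and 3.17% all above. A gene chosen for a difference at 3 months already has 1 pair in order, so these shares are a description. Besides the genes named so far, the lower ones were Galnt18, a glycosyltransferase that starts O-glycans (9.35 FPKM in IKO and 11.8 in WT at 3 months), Nup93, a nuclear pore scaffold (31.6 in IKO, 39.2 in WT), and Lsm5, part of a ring that binds U6 small nuclear RNA (6.61 in IKO, 8.21 in WT). The higher ones included Nbl1, a secreted BMP antagonist (7.43 FPKM in IKO, 5.58 in WT), Mt3, a metallothionein (15.04 in IKO, 11.9 in WT), and Hgfac, a protease that activates hepatocyte growth factor (20.3 in IKO, 16.2 in WT). These 6 were named after their values were seen.

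**Figure D4:**
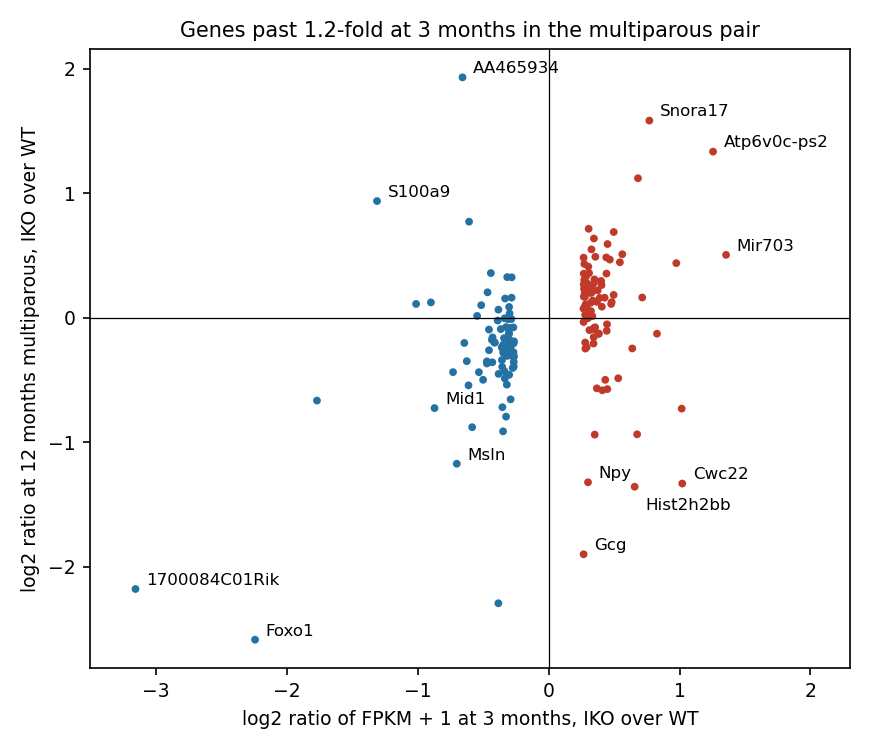
Each point is 1 of the 174 genes past 1.2-fold at 3 months, with its 3-month log2 ratio of FPKM + 1 (IKO over WT) on the x axis and its ratio in the multiparous pair on the y axis. Of the blue points, lower at 3 months, 67 of 83 lie below 0 on the y axis, and of the red points, higher at 3 months, 62 of 91 lie above 0.

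Gene lists are read against all compared genes, of which 54.8% were above 0, 1.12% past 1.2-fold higher and 1.02% past 1.2-fold lower. Known FoxO target genes were split. Of 26 listed, 15 were compared and 11 were under the level rule; 7 of the 15 were higher and 8 lower in IKO, 0 passed 1.2-fold (2.14% of all genes did), and the median was -0.02, against 0.01 over all genes. Irs2, the insulin receptor substrate that FoxO proteins raise in fasted liver, had 5.96 FPKM in IKO and 6.96 in WT, a log2 ratio of -0.19. Ccnd1, a D-type cyclin that FoxO proteins are known to repress, had 34.4 FPKM in IKO and 29.5 in WT, a log2 ratio of 0.21. Gabarapl1, an autophagy gene and the most abundant of the list, had 100 FPKM in IKO and 94.2 in WT.

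In the insulin and IGF signalling list, 14 of 21 compared genes were lower and 7 higher, with a median of -0.02. Igf1r, the IGF1 receptor, was the 1 member past 1.2-fold, with 39.9 FPKM in IKO and 48.2 in WT. Igf1r after pregnancies had 38.7 FPKM in IKO and 51.2 in WT. At 12 months nulliparous its order was the opposite, with 45.4 FPKM in IKO and 29.7 in WT. Of the 21 genes, 20 were higher in IKO in that pair (median 0.39) and 8 in the multiparous pair (median -0.01). Akt1, the kinase upstream of FoxO1 and the most abundant member, had 56.2 FPKM in IKO and 57.5 in WT.

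Genes of beta cell identity and function were near-equal as groups. Of 17 endocrine transcription factors compared, 11 were higher and 6 lower, 0 passed 1.2-fold and the median was 0.02. The ends of the list were Mlxipl, the glucose-responsive factor ChREBP (82.7 FPKM in IKO, 72.7 in WT), and Mafa, an activator of the insulin gene (70.8 in IKO, 79.1 in WT). Of 20 maturity and glucose-sensing genes, 10 were higher and 10 lower, with a median of 0.01; Npy, a neuropeptide of immature beta cells, was past 1.2-fold higher (31.3 FPKM in IKO, 25.2 in WT) and Trpm5, a calcium-activated cation channel, lower (4.98 in IKO, 6.18 in WT). Slc2a2, the glucose transporter, had 63.1 FPKM in IKO and 65.1 in WT. Of 25 ion channel and exocytosis genes, 17 were lower and 8 higher (median -0.03). Syt4, a synaptotagmin that sets the calcium sensitivity of insulin release, and Trpm5 passed 1.2-fold; Syt4 had 92.6 FPKM in IKO and 114 in WT. Of 15 granin and prohormone processing genes, 8 were lower and 7 higher, 0 passed 1.2-fold, and the median was -0.01. Pam, which amidates peptide hormones, had 234 FPKM in IKO and 273 in WT.

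Dedifferentiation genes were mostly too low for the level rule, which 2 of 15 listed genes met. Of the 11 above 0 in both libraries, 4 were higher in IKO, against 50.7% of all genes. Aldh1a3, a retinaldehyde dehydrogenase known to mark dedifferentiating beta cells, had 2.18 FPKM in IKO and 0.624 in WT, below 5 in both. Its log2 ratio of FPKM + 1 was 0.97 in this pair, 1.28 in the older nulliparous pair and 2.31 after pregnancies, so the 3-month pair had the smallest of the 3. Neurog3, the endocrine progenitor factor, had 0.280 FPKM in IKO and 0.369 in WT. Gc, the vitamin D-binding protein, had 37.4 FPKM in IKO and 34.3 in WT, a log2 ratio of 0.13, against 0.84 and 1.13 in the 12-month nulliparous and multiparous pairs.

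Interferon-stimulated genes formed the list with the highest median among those with at least 4 members compared. Of 27 listed genes, 14 were compared, and 14 of 14 were above 0, where 54.8% of all genes were; the median was 0.12. Without the level rule 23 of 26 were higher in IKO, against 50.7% of all genes. Those past 1.2-fold, 3 of 14 against 1.12% of all genes, were Irf7, the master regulator of type I interferon responses (5.64 FPKM in IKO, 3.70 in WT), Usp18, which removes ISG15 from proteins (8.996 in IKO, 6.84 in WT), and Bst2, tetherin (8.28 in IKO, 6.68 in WT). H2-D1, a class I molecule and the most abundant member, had 270 FPKM in IKO and 264 in WT. In the multiparous pair 9 of the 14 were higher in IKO (median 0.11), and at 12 months nulliparous 6 of 14 (median -0.17). Irf7 was higher in IKO in all 3 pairs (4.17 FPKM in IKO and 2.35 in WT at 12 months nulliparous, 8.16 in IKO and 4.69 in WT in the multiparous pair), although its 12-month nulliparous IKO value was below the multiparous WT value.

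Mitochondrial genes leaned higher by small amounts. Of 39 respiratory chain and ATP synthase genes, 35 were above 0 and 4 below, with a median of 0.06 and 0 past 1.2-fold. The most abundant, Uqcrq of complex III, had 528 FPKM in IKO and 517 in WT. Atp5d of the ATP synthase had the highest ratio (107 FPKM in IKO, 94.4 in WT). Short transcripts leaned the same way in this pair: the 1918 compared genes with the shortest transcripts had a median log2 ratio of 0.02 and the 1918 with the longest -0.00479. With the trends over transcript length and GC content removed, the median of the respiratory chain genes was 0.03, and it was 0.03 with the trend over level removed. The interferon-stimulated genes kept a median of 0.11 without the length and GC trends. Of 45 cytosolic ribosomal protein genes, also short, 31 were higher and 14 lower (median 0.04), where 54.8% of all genes were above 0. The 4 past 1.2-fold were higher, against 1.12% of all genes, among them Rpl30 (30.0 FPKM in IKO, 21.9 in WT) and Rplp2 (13.7 in IKO, 10.6 in WT). Of 15 fatty acid oxidation genes, 10 were higher and 5 lower (median 0.04). Hadh, a short-chain dehydrogenase abundant in beta cells, had 206 FPKM in IKO and 185 in WT, and Cpt1a, which admits long-chain fatty acids to mitochondria, had 8.95 in IKO and 9.93 in WT.

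Sterol and fatty acid synthesis genes had 13 lower and 7 higher of 20 (median -0.04), with Cyp51 of sterol synthesis at 16.3 FPKM in IKO and 18.7 in WT. After pregnancies the order was the other way, with 17 of 20 higher (median 0.29). The most abundant member, Acly, had 593 FPKM in IKO and 558 in WT at 3 months. Glycolysis genes had 7 lower and 4 higher of 11 (median -0.01), with Pfkp and Pgk1 lowest, Pgk1 at 39.9 FPKM in IKO and 45.4 in WT.

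Stress genes differed by list. The ATF4 amino acid response list, which holds targets of the integrated stress response, had 12 lower and 2 higher of 14 (median -0.07). Trib3, a pseudokinase, was the 1 member past 1.2-fold (47.8 FPKM in IKO, 58.2 in WT). Psat1 of serine synthesis had 61.7 FPKM in IKO and 72.1 in WT. After pregnancies 11 of the 14 were lower (median -0.13), and at 12 months nulliparous 5 of 14 (median 0.08). Chaperone and ER stress genes had 13 lower and 9 higher of 22 (median -0.01), with Hspa5, the main ER chaperone, at 990 FPKM in IKO and 1024 in WT. Antioxidant and metallothionein genes had 13 higher and 6 lower of 19 (median 0.06). Nqo1, a quinone reductase, was past 1.2-fold, with 6.78 FPKM in IKO and 4.73 in WT, and Gpx1, a glutathione peroxidase, had 57.0 in IKO and 47.5 in WT. Nqo1 was higher in IKO in the other pairs too, with 4.65 FPKM in IKO and 4.19 in WT at 12 months nulliparous, and 4.37 in IKO and 3.20 in WT in the multiparous pair.

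Immediate early genes, which respond within minutes to stimulation and also to cell handling, were split. Of 11 compared, 7 were higher and 4 lower (median 0.04). Past 1.2-fold, 1 was higher and 2 were lower, where 1.12% and 1.02% of all genes were, with Jun past 1.2-fold higher (19.1 FPKM in IKO, 13.8 in WT) and Nr4a1 and Egr1 past it lower (Nr4a1 at 13.1 in IKO and 17.4 in WT, Egr1 at 63.2 in IKO and 77.1 in WT). Fos, the most abundant member, had 85.2 FPKM in IKO and 74.9 in WT. With all genes of at least 1 FPKM the median was on the other side, at -0.06, and without the level rule 7 of 24 members were higher, against 50.7% of all genes. Lactogen-responsive genes (7 compared, median 0.02) and cell cycle genes (7 compared, median 0.04) had 0 members past 1.2-fold in either direction.

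**Figure D5:**
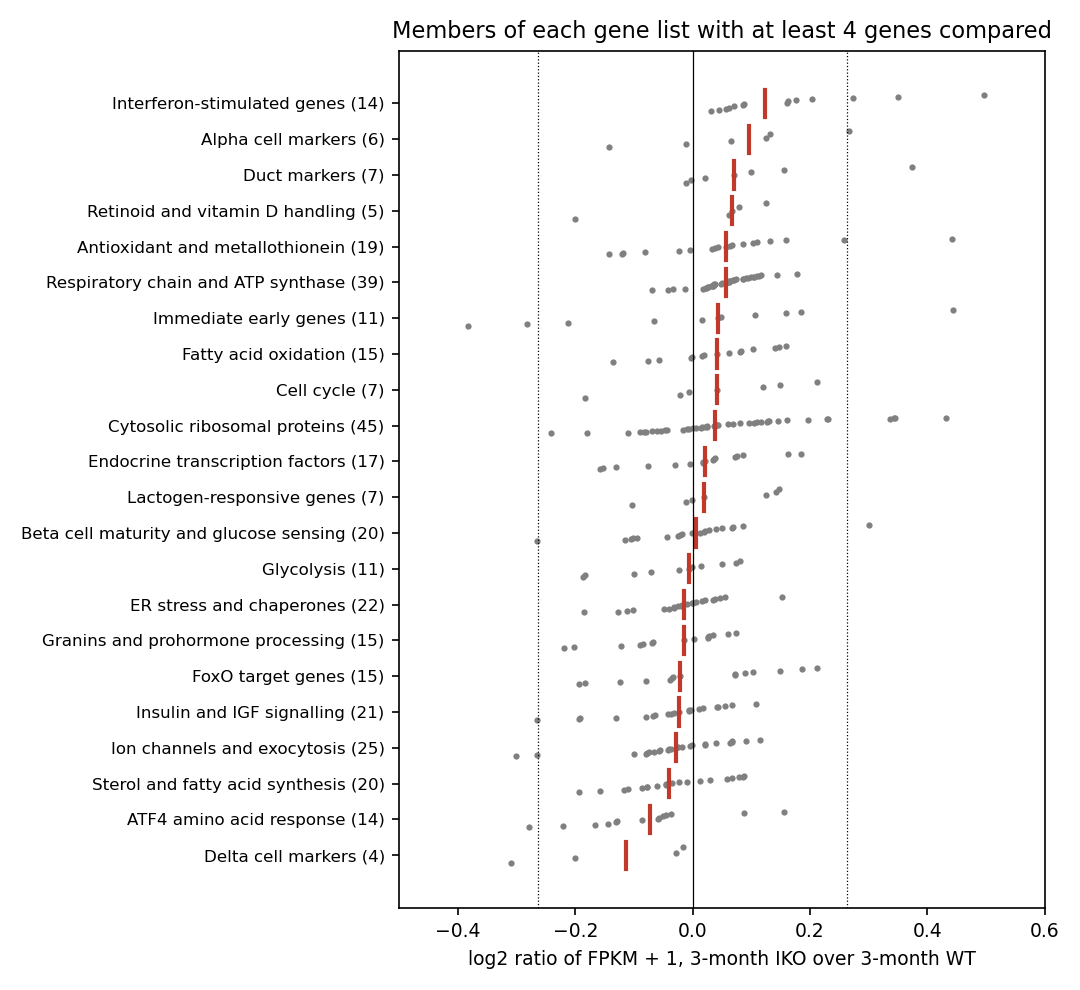
Grey points are the log2 ratios of FPKM + 1 at 3 months, IKO over WT, of the compared members of each gene list (number in brackets), and red bars their medians; dotted lines mark 1.2-fold. Acinar markers, with 2 members compared, are not drawn. The 14 interferon-stimulated genes lie wholly above 0, and 12 of 14 ATF4 response genes lie below 0.

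Markers of the other cells of the islet and pancreas were read in the same libraries. Endocrine hormones other than insulin were present in both: Gcg of alpha cells had 410 FPKM in IKO and 340 in WT, Sst of delta cells had 187 in IKO and 189 in WT, and Ppy had 248 in IKO and 219 in WT. The 16 alpha cell markers summed to 778 FPKM in IKO and 702 in WT. Of the 6 alpha markers compared, 4 were higher in IKO. Of the 8 delta cell markers above 0 in both libraries, 4 were higher in IKO, against 50.7% of all genes. The 4 that met the level rule were lower, Pdyn most (77.8 FPKM in IKO, 96.7 in WT). Of these, Sst and Sstr3 had log2 ratios of -0.02 and -0.03. Hhex, the defining factor, was under the level rule, at 0.467 FPKM in IKO and 0.436 in WT. How far hormone transcripts came from such cells or from free RNA was not tested.

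Acinar markers were higher in IKO. Of the 20 above 0 in both libraries, 19 were higher, against 50.7% of all genes. Their sum was 41.6 FPKM in IKO and 30.8 in WT, of which Bhlha15, also expressed in other secretory cells, made 21.6 in IKO and 20.7 in WT. Ctrb1, the highest enzyme, had 5.09 FPKM in IKO and 2.43 in WT, and Prss2, a trypsinogen, had 1.73 in IKO and 0.591 in WT. Ptf1a, the defining acinar factor, was at 0 in both. After pregnancies Ctrb1 had 1.72 FPKM in IKO and 1.98 in WT, and in the older nulliparous pair 9.89 in IKO and 29.4 in WT. The 11 duct markers summed to 840 FPKM in IKO and 744 in WT, mostly Krt7 (335 in IKO, 300.3 in WT) and Spp1 (226 in IKO, 174 in WT), while Sox9, the defining duct factor, was at 0 in IKO and 0.012 in WT. Endothelial markers summed to 5.71 FPKM in IKO and 5.69 in WT, lymphocyte markers to 0.676 in IKO and 0.857 in WT, mesenchymal markers to 1.202 in IKO and 1.10 in WT, and Schwann cell markers to 4.41 in IKO and 3.83 in WT. The share of acinar RNA in the other differences of the pair was not tested.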

How the data were processed

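RNA of sorted beta cells from 6 libraries, 1 per group, was read from the table of FPKM values deposited by the authors. Per the labels' protocols, poly-A libraries that keep strand were sequenced from both ends, 100 bases each. TopHat, Cufflinks, Cuffdiff and mm10 are named in the submitters' processing notes; versions and annotation are not given in the sources used here. FPKM depend on length models and on how reads of similar or overlapping genes are divided. Columns of no sample numbered 0. The table has 23845 rows, of which 758 with symbols at several loci were left out. A further 9 genes were listed at 0 in 1 of the 3-month libraries and at 5 FPKM or more in the other; 8 are small RNAs and 1 is Actr3 (listed at 0 in IKO, 49.2 FPKM in WT), and none was compared. The log2 ratio of FPKM + 1 (pseudocount 1 FPKM) was taken, IKO over WT, with Python 3.11.15, pandas 2.3.3 and numpy 2.4.6. With 1 library per group no test was run; counts past 2-fold, 1.5-fold and 1.2-fold are set beside the share of all genes. Code was tested on simulated data. Deposited starts count from 0 (after adding 1, 76.6% of 11991 genes that share their RefSeq end match its start), so 1 was added. Named genes were the FoxO family, the 15 highest and 15 lowest ratios, genes past 1.5-fold in all 3 pairs, a fixed set of beta cell and islet genes, the most abundant and extreme members of each list, and markers at 1 FPKM or more; others are said to be named after their values were seen, or are named for their place next to a named gene, for a complete separation of libraries, or as a defining marker. The members and gene lists were chosen with earlier results of these data known. Alternatives changed the pseudocount, level rule, scaling, locus rule and trends. Some items are not reported here.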

Additional observations from a re-analysis of the deposited data

Results flagged for a closer look

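Of the 26 genes past 1.5-fold at 3 months, 9 had the same order in both other pairs and 9 the opposite order in both. The share of all compared genes with an opposite order in both was not counted. Of the 9 with the opposite order, 4 were past 1.5-fold in each other pair. The difference between pairs was not tested. S100a9 had a log2 ratio of -1.31, against 1.33 in the older nulliparous pair and 0.94 in the multiparous pair. S100a6 had 0.68, against -0.84 and -0.94 in the same order of pairs. Snora78 had 1.02, against -0.96 and -0.73, and Cwc22 had 1.02, against -0.61 and -1.33. The other 5 were Zfp949 (-1.01, against 0.31 and 0.11), Snord15b (-0.90, against 1.31 and 0.12), Snora70 (-0.61, against 0.48 and 0.77), Hist2h2bb (0.66, against -0.13 and -1.36) and Ctrb1 (0.83, against -1.48 and -0.13).

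The comparison leaves out 7767 genes that were above 0 in both libraries but under 5 FPKM in both. Of these, 9 were at least 1.5-fold higher in IKO on the log2(FPKM + 1) scale. Lower genes of this level exist too and are not named here. With genes of at least 1 FPKM, 20 were 1.5-fold lower in IKO, against 14 under the rule of 5 FPKM. Tmsb15l had a log2 ratio of 1.48 and shares its locus with Tmsb15b2. Aldh1a3 had 0.97, with 2.18 FPKM in IKO and 0.624 in WT. The pancreatic enzyme genes Prss2, Cela3b and Cela2a had 0.78, 0.73 and 0.66; Prss2 and the others were the reverse at 12 months nulliparous, at -1.12, -1.76 and -1.74. Sap25 had 0.66 and Hebp1, a heme-binding protein gene, 0.62. The uncharacterised 1810062G17Rik had 0.63, and its ratio was alike in the other pairs, at 0.64 in the older nulliparous pair and 0.53 in the multiparous pair. Ache, acetylcholinesterase, had 0.59, with 1.61 FPKM in IKO and 0.737 in WT, and was also above 0 in the other pairs, at 0.41 and 0.60.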

How the results depend on the processing

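With a pseudocount of 5 FPKM, 1 gene was 2-fold higher and 2 lower, 5 and 7 were past 1.5-fold, and 45 and 48 past 1.2-fold. With genes of at least 1 FPKM, 21 were 1.5-fold higher, 190 were 1.2-fold higher and 193 lower; the median of immediate early genes was then -0.06 (-0.0641), and that of lactogen-responsive genes 0.08 (0.0836). With at least 10 FPKM, 2 were 2-fold higher and 3 lower, 7 and 9 past 1.5-fold, and 57 and 54 past 1.2-fold. These changes follow from which genes are tested or how low values are weighted. Without features under 300 bases, 2 genes were 2-fold higher. The other 44 counts stayed within 1.5 times, and 204 list medians moved by less than 0.0497. Several list medians are smaller than that limit, so a median counted here could still change sign. That of beta cell maturity genes went from 0.0058 to -0.0115 with the trend over level removed. Of the single-gene ratios past 1.5-fold, 202 stayed past it and 14 did not, all with the pseudocount of 5. No paired analysis was possible because the 3-month comparison holds 1 pair of libraries, and no replicate could be left out; a fit of genotype and stage over all 6 libraries, which would describe the stages together, was not run. Removal of length and GC trends and of short features was added after the data were seen.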
